A study of Mus musculus with 11 samples.

Results

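Oxidative phosphorylation is the last stage of aerobic metabolism. Complexes I to IV of the inner mitochondrial membrane pass electrons from NADH and succinate to oxygen, all but complex II pump protons, and complex V, the ATP synthase, uses the proton gradient to make ATP. Activated and effector T cells combine it with glycolysis, and most subunits are encoded in the nucleus, with a smaller number encoded by mitochondrial DNA. The subunits described here were taken by gene symbol from a mouse Illumina bead array: names beginning with Nduf (complex I), Sdha to Sdhd (II), names beginning with Uqcr plus Cyc1 and Cycs (III), Cox4 to Cox8 (IV) and Atp5 (V). The array carried 139 such probes for 89 genes among its 45281 probes. Of these, 116 probes for 79 genes were above background (detection p under 0.05) on at least 5 of the 11 arrays and were analysed, out of 18003 such probes, for 9139 named genes, of the whole array. Names beginning with Nduf also took in 13 probes for 8 assembly factors (Ndufaf), which help to build complex I but are not part of it, and 1 probe annotated to a pseudogene, Ndufs5-ps.

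The RNA came from TCRβ+CD4+ T cells of the colon lamina propria, the connective tissue under the gut epithelium. Samples were 5 of Il23r-/- cells and 6 of wild-type (WT) cells, all of the C57BL/6 strain per the labels. Naive CD4 T cells of both genotypes had been transferred together into Rag1-/- mice, which lack T and B cells of their own, and both were recovered once the recipients had colitis, told apart by congenic markers. Every sample, WT included, therefore comes from transferred cells in an inflamed host, and the Il23r deletion was carried by the transferred cells. The labels used here give neither the age of the mice nor the time after transfer.

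The study set out to find genes that respond to interleukin 23 in these cells, and the loss of its receptor is the contrast. The Il23r probe reached the detection threshold on 0 of the 11 arrays, reading 4.71 ± 0.08 in Il23r-/- and 4.78 ± 0.11 in WT cells (log2 intensity, SD, n = 5 and 6), so it gives no check of the labels. Each array detected between 17309 and 18440 probes, and the median raw intensity per array lay between 107.6 and 176.7. The T cell list held 11 genes of the array, among them Cd3e, Cd4 and Thy1, but also Ptprc, which is not particular to T cells. All 11 were above background, and 0 of their 20 probes passed the test (median log2 difference -0.06). The list of myeloid markers had 15 probes for 10 genes, among them H2-Aa, H2-Ab1, H2-Eb1 and Cd74, with Adgre1 and Itgam not above background. All 15 were higher in Il23r-/- cells, a direction that 8735 of all 18003 probes had, and 0 passed. The mean level over the list ran from 8.53 to 8.94 in Il23r-/- and from 7.69 to 9.15 in WT arrays. Of 19 probes for proliferation genes 16 were lower and 0 passed (median log2 difference -0.35, mean level 8.78 to 9.33 in Il23r-/-, 9.02 to 9.46 in WT). At an unadjusted limma p under 0.05, 10 of the 19 were lower, a direction that 8.32% of all probes had at that p. Of 8 epithelial probes 6 were higher, with Epcam, Vil1, Krt19, Krt20 and Fabp2 not above background, of 7 stromal and endothelial probes 3 were higher, and of the B cell genes only Cd79b was detected. None of the epithelial, stromal and B cell probes passed. The part of these cell types and of proliferation in the values below was not tested. In sorted bulk RNA, fewer cells of a kind and less RNA per cell cannot be told apart.

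Nuclear respiratory factor 1 (NRF-1), the ETS factor GABP and YY1 are known regulators of respiratory chain genes. RefSeq promoter windows (GRCm38.p6, 250 bases before to 50 after the start) were matched for 73 of the 89 genes. The letters GCATGCGC, the core of the NRF-1 motif, stood on either strand in the windows of 13 of the 73 genes (17.8%), against 3.05% of all 27025 genes with a window, non-coding genes included. The ETS letters CCGGAAG stood in 18 (24.7%, against 9.93%) and the YY1 letters AAGATGG in 11 (15.1%, against 7.28%), and the ERR letters TCAAGGTCA in 2 (2.74%, against 0.466%). These matches describe the letters of the windows and are not sites of binding. The promoters given here are those of Ndufaf4, the single gene with a probe that passed the test, of Sdhb, measured by 3 probes on 1 side of zero, and of Cycs, which encodes cytochrome c and is a textbook NRF-1 target. Each runs 5′ to 3′ on the gene's strand from 170 bases before to 15 bases after the start, with the NRF-1, ETS and YY1 letters, on either strand, in capitals.
Ndufaf4, chr4:24897913-24898097, plus strand: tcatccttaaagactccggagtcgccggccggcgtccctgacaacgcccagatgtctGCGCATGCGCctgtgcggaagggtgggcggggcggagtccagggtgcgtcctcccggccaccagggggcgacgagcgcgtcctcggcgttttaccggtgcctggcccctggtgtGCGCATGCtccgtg
Sdhb, chr4:140961101-140961285, plus strand: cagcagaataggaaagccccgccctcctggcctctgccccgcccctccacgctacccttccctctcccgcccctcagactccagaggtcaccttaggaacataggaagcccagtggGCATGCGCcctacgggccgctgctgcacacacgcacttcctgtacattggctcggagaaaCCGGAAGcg
Cycs, chr6:50566555-50566739, minus strand: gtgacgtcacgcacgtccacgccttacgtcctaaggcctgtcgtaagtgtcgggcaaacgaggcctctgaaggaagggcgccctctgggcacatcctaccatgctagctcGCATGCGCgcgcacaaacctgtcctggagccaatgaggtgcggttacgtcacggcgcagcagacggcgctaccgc
In Ndufaf4 the NRF-1 letters on both strands overlap in a palindrome that begins 113 bases before the start, and a further match begins just after the start. In Sdhb the NRF-1 match begins 54 bases and in Cycs 60 bases before the start, and Sdhb also holds the ETS letters just after its start.

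Few transcripts of the 5 complexes passed the test between Il23r-/- and WT cells, and the median differences were small in complexes I, III, IV and V (-0.08 to 0.01) and lower in complex II (-0.28). Of the 116 probes, 1 passed a limma adjusted p under 0.05 (Benjamini-Hochberg over all 18003 probes), a share of 0.862%, against 1.78% of all probes. By direction 1 rose, where 1.17% of all probes rose, and 0 fell, where 0.611% of all probes fell. The probe that rose belongs to the assembly factor Ndufaf4, so that 0 of the 106 probes for subunits passed. At an unadjusted p under 0.05 stood 19 of the 116 probes (16.4%, against 17.6% of all probes), 17 of them lower in Il23r-/- cells, a direction that 8.32% of all probes had at that p. The arrays of the genotypes did not overlap for 2 of the 116 probes (1.72%, against 3.21% of all probes), 1 of Ndufaf4 above the WT range, as for 1.92% of all probes, and 1 of Sdhb below it, as for 1.29%. The median log2 difference, Il23r-/- minus WT, was -0.06, beside -0.01 for all probes, and 74 probes (63.8%) lay below 0, beside 51.5% of all probes. The 95% interval of the difference lay within 0.5 log2 units of zero for 93 of the 116 probes (80.2%), beside 73.4% of all probes. Among all probes at least as bright as the lower quartile of these members, the share was 86.3%. The interval lay within 1 unit for 115 of the 116 member probes, the exception being a probe of Atp5md. Whether each sample had its own recipient mouse is not stated, so every p-value here reflects sample-to-sample spread that could be technical.

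The share of members below 0 moved with the scaling and with other settings. When the arrays were scaled to a common median instead of quantile normalized, 104 of the 116 probes (89.7%) lay below 0 with a median of -0.16. In that setting 68.1% of all probes at least as bright as the lower quartile of these members also lay below 0, against 51.4% with quantile normalization. With the authors' log2 values 80.2% of the members lay below 0, beside 58.1% of such bright probes. The shares were 75% and 52.3% with array brightness as a covariate, and 75.9% and 51.8% without Il23r-/- sample 1. The lowest member share was 62%, with the brightest probe per gene (47.7% of bright probes).

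**Figure D1:**
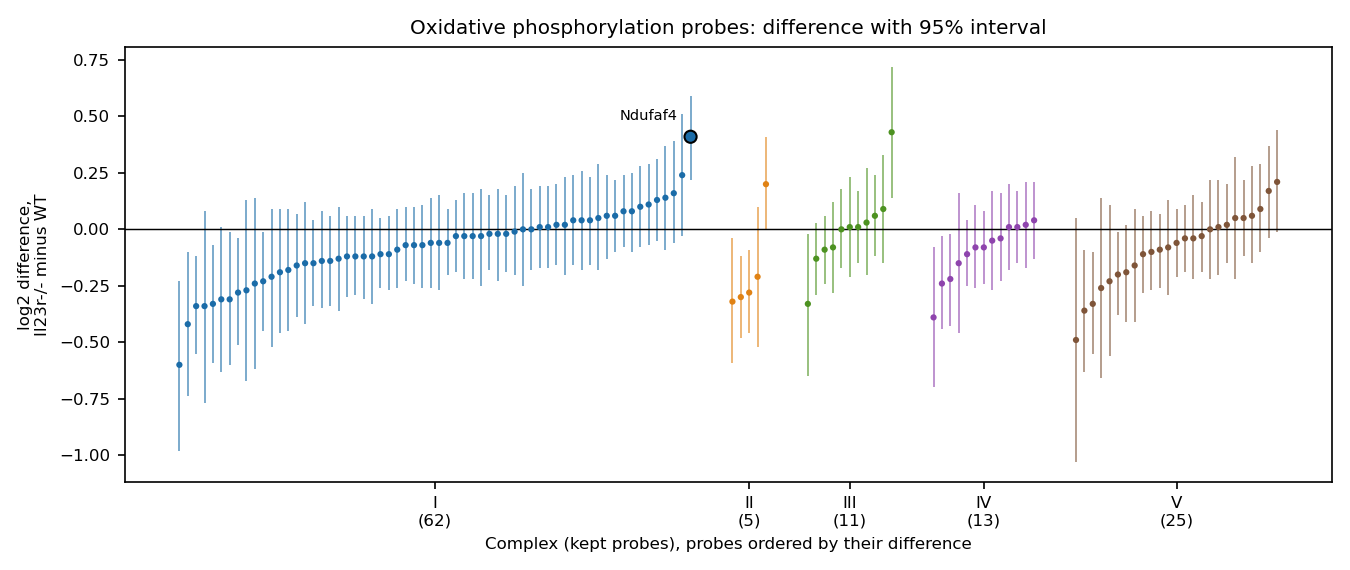
Log2 difference (Il23r-/- minus WT) of the 116 probes, grouped by complex and ordered by size, with 95% limma intervals as vertical lines. The outlined point is the Ndufaf4 probe at 0.41, the single probe that passed, and most other intervals include 0.

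On each array, the level of a complex was summarised as the median, over its probes, of the deviation from the mean of both genotypes. For complex I it averaged -0.03 ± 0.06 in Il23r-/- and 0.02 ± 0.05 in WT arrays (log2, SD, n = 5 and 6). For complex II it was -0.10 ± 0.10 and 0.10 ± 0.11 in Il23r-/- and WT arrays. Complex III stood at 0.00 ± 0.05 in Il23r-/- and 0.01 ± 0.06 in WT, complex IV at -0.04 ± 0.09 in Il23r-/- and 0.04 ± 0.03 in WT, and complex V at -0.04 ± 0.06 in Il23r-/- and 0.01 ± 0.02 in WT arrays. The genotypes overlapped in every complex. The first Il23r-/- sample, which had the brightest array of all, was the highest of its genotype for complexes I, III, IV and V (0.07, 0.07, 0.10 and 0.05), and the middle one for complex II (-0.13).

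**Figure D2:**
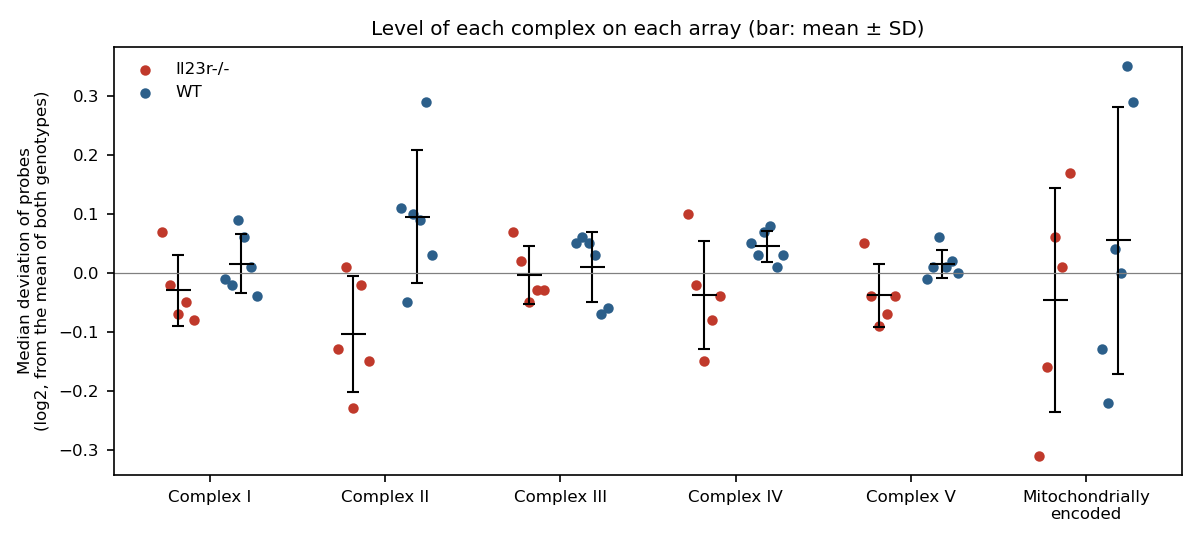
Median deviation of each complex's probes on each array (log2 units, zero being the mean of both genotypes), with 1 point per array, Il23r-/- left of WT, and the mean ± SD as bars. The genotypes overlap in every complex, with complex II showing the widest gap between means (-0.10 in Il23r-/- and 0.10 in WT) and the mitochondrially encoded subunits the widest spread within a genotype.

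Complex I, the NADH dehydrogenase, was represented by 62 kept probes for 42 genes, with 1 probe called as higher, 0 as lower and a median difference of -0.06. Its core subunits carry the flavin and the iron-sulfur clusters that take electrons from NADH to ubiquinone. Ndufv1 (0.04), the NADH-binding flavoprotein, Ndufv2 (0.05), and the iron-sulfur or quinone-site subunits Ndufs7 (0.01), Ndufs8 (-0.12) and Ndufs3 (-0.14) had a median difference of 0.01, and all 5 intervals lay within 0.5 units of zero. The Ndufs3 probe had an SE of 0.10 and an interval from -0.35 to 0.08 (adjusted p = 0.493). Ndufs1, which holds several iron-sulfur clusters, had a single probe that was above background on 0 arrays.

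The 20 probes for 14 Ndufa genes (Ndufab1, the mitochondrial acyl carrier protein, among them) had a median of -0.05, from -0.27 to 0.14. Ndufa4, named for complex I but now assigned to complex IV, had a difference of -0.07 ± 0.08 (SE). The other matrix arm subunits Ndufs4, Ndufs6 and Ndufv3, with 9 probes, lay between -0.15 and 0.08.

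Probes for the Ndufb and Ndufc subunits, which surround the proton-pumping membrane arm, leaned lower in Il23r-/- cells: 17 of 18 probes were below 0, with a median of -0.22, and 0 passed. Ndufb3 (0.04) was the exception. The group was formed by gene symbol, so any membrane arm subunits with other names, such as those among the Ndufa genes, are not in it. It was made after the values had been seen, and so its median and the separation of arrays below have no test. On the array level the group stood at -0.16, -0.09, -0.14, -0.10 and -0.09 in the Il23r-/- samples 1 to 5, and from -0.07 to 0.27 in WT samples. The WT values spread more widely than the Il23r-/- values, with the lowest in WT sample 2 and the highest in WT sample 5. With only the brightest probe of each gene, 11 of 12 genes were below 0 with a median of -0.16, and with array brightness as a covariate the median was -0.17.

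Ndufc2 had the lowest difference of all members, and it rested on 1 of its 2 probes. That probe read 7.17, 7.57, 7.04, 7.48 and 7.05 (log2 intensity) in Il23r-/- samples, against 7.36 at the lowest, 7.80 at the median and 8.45 at the highest in WT samples. All 5 Il23r-/- values lay below the WT median, and the groups overlapped. The difference was -0.60 ± 0.18 (SE, 95% interval -0.98 to -0.23, limma adjusted p = 0.107), and it passed without WT sample 2 (-0.71, adjusted p = 0.0404). The other, brighter probe was at -0.02 ± 0.08, the widest disagreement between probes of 1 gene among the members (0.59). Ndufb9, a further membrane arm subunit, read 10.70, 10.69, 10.83, 10.76 and 10.82 in Il23r-/- samples, against 10.62, 11.17 and 11.62 at the lowest, the median and the highest in WT. The 5 Il23r-/- values lay close together inside the lower part of the WT range, a difference of -0.42 ± 0.15 (adjusted p = 0.172, and 0.0355 without WT sample 2). The probe annotated to the pseudogene Ndufs5-ps was at -0.34 ± 0.10 (adjusted p = 0.113), and whether it reads Ndufs5 was not tested.

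The assembly factors had 9 kept probes for 7 genes, with 6 probes above 0 and a median of 0.08. Of all 18003 probes, 8735 were above 0. Both Ndufaf4 probes, the called one among them, and both Ndufaf5 probes (0.08 and 0.00) are among the 6. Ndufaf4, which is needed early in the assembly of complex I, read 10.85, 11.09, 11.11, 11.03 and 10.91 in Il23r-/- samples on the probe that passed, against 10.46, 10.56 and 10.77 at the lowest, the median and the highest in WT samples. Every Il23r-/- sample was above every WT sample. The means were 11.00 ± 0.11 in Il23r-/- and 10.59 ± 0.13 in WT cells (SD, n = 5 and 6), so that the transcript rose by 0.41 ± 0.09 on the log2 scale (1.33-fold, 95% interval 0.22 to 0.59, limma adjusted p = 0.0324). The second Ndufaf4 probe read 11.17, 11.24, 10.96, 10.90 and 10.63 in Il23r-/- samples, against 10.73, 10.80 and 10.91 in WT. On it the Il23r-/- samples spread to both sides of the WT range, and the difference was 0.16 ± 0.10 (adjusted p = 0.444). This call did not hold in 8 of 11 leave-one-out fits, those without Il23r-/- sample 2, 3, 4 or 5 or WT sample 1, 3, 5 or 6 (0.38 to 0.43, adjusted p up to 0.0918). It was also lost with the replicate number as a block (0.41, adjusted p = 0.0575) and with equal medians (0.37, adjusted p = 0.143).

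**Figure D3:**
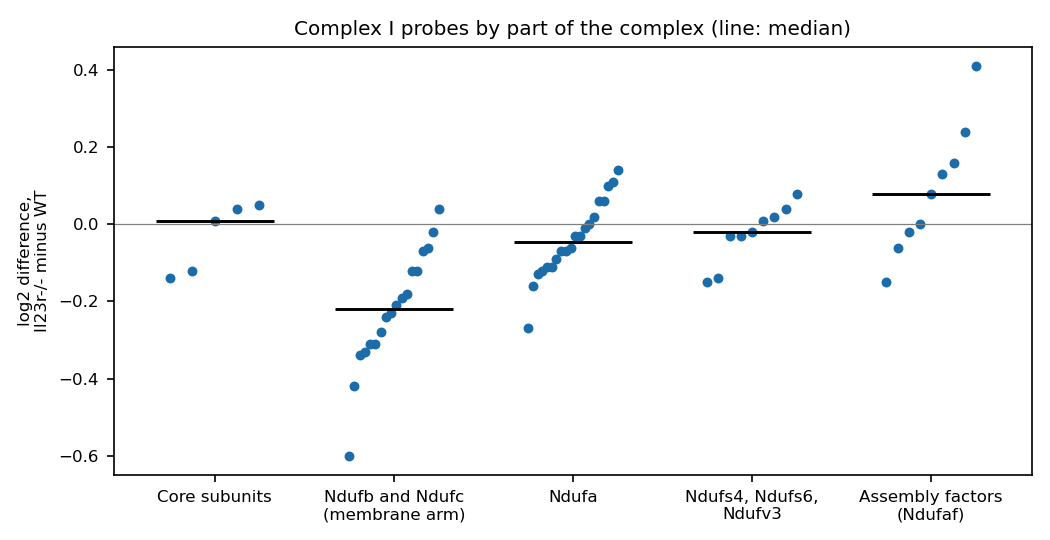
Log2 difference (Il23r-/- minus WT) of complex I probes, grouped by gene symbol and role, with the median as a line. Probes for Ndufb and Ndufc subunits sit lowest (median -0.22) and assembly factors highest (median 0.08).

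Complex II, succinate dehydrogenase, also belongs to the tricarboxylic acid cycle. It was represented by 5 kept probes for 3 genes, with 0 called and a median of -0.28 that rests on Sdhb. Sdhb, the iron-sulfur subunit, had 3 probes. Its middle probe in brightness read 10.87, 10.83, 10.78, 10.92 and 10.85 in Il23r-/- samples, against 10.94, 11.18 and 11.29 at the lowest, the median and the highest in WT samples. Every Il23r-/- sample was below every WT sample. The means were 10.85 ± 0.05 in Il23r-/- and 11.15 ± 0.15 in WT cells (SD), a difference of -0.30 ± 0.08 (SE, interval -0.48 to -0.12, limma adjusted p = 0.0990). The brightest probe was at -0.28 ± 0.08 (adjusted p = 0.119) and the dimmest at -0.32 ± 0.13 (adjusted p = 0.224), so that the probes differed by 0.04 at most. Sdhb did not pass here, but its middle probe passed without WT sample 2 (-0.34, adjusted p = 0.0448), with array weights (-0.33, adjusted p = 0.0488) and without background correction (-0.28, adjusted p = 0.0439).

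The membrane anchors of complex II went to either side of zero. Sdhc read 10.67, 10.61, 10.53, 10.48 and 10.46 in Il23r-/- samples, against 10.13, 10.31 and 10.58 in WT, a difference of 0.20 ± 0.10 (adjusted p = 0.291). All 5 Il23r-/- values lay above the WT median. Sdhd was at -0.21 ± 0.14 (adjusted p = 0.470). The single probe of Sdha, the flavoprotein that oxidises succinate, was above background on 0 arrays, so its level was not measured.

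**Figure D4:**
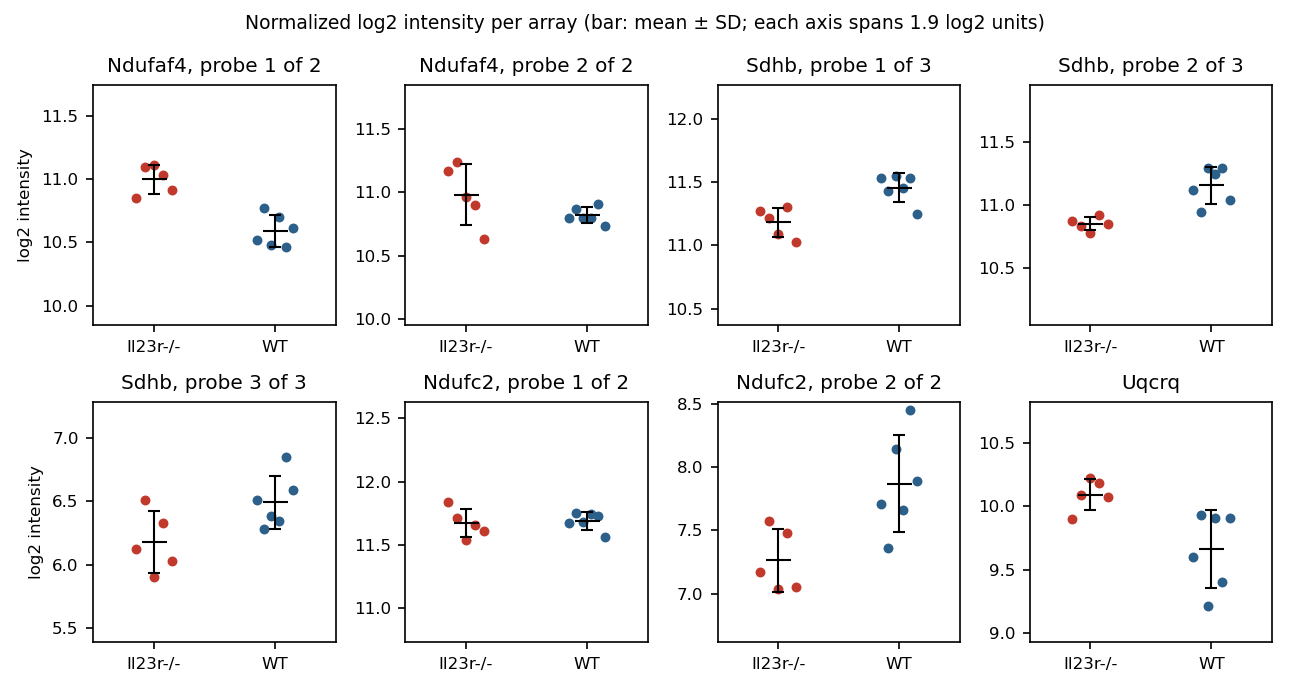
Normalized log2 intensity on each array for all kept probes of Ndufaf4, Sdhb, Ndufc2 and Uqcrq, with Il23r-/- left of WT, mean ± SD as bars and the probes of a gene numbered by their mean in Il23r-/- cells, highest first. The genotypes are apart on the first Ndufaf4 probe and on the second Sdhb probe, and the probes of Ndufc2 differ from each other.

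Complex III, the cytochrome bc1 complex, was grouped with cytochrome c, which carries electrons from it to complex IV. Of its 11 kept probes for 8 genes 0 passed, 7 were above 0 and the median was 0.01. Uqcrq, a small subunit next to the quinone site, had the highest difference of all members. It read 9.90, 10.09, 10.22, 10.18 and 10.07 in Il23r-/- samples, against 9.21, 9.75 and 9.93 at the lowest, the median and the highest in WT. The groups overlapped by a single Il23r-/- sample, and the difference was 0.43 ± 0.14 (interval 0.14 to 0.72, adjusted p = 0.128). Its other probe was above background on 0 arrays.

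The electron carriers of this segment had small differences. Cyc1, cytochrome c1, was at -0.09 ± 0.07 (adjusted p = 0.544). Cycs, cytochrome c, had its brightest probe at 0.06 ± 0.08 (adjusted p = 0.762), a dimmer one at -0.33 ± 0.15 (adjusted p = 0.261) and the dimmest at 0.09 ± 0.11. Its probes thus disagreed in sign. Uqcrc1, a core protein of the complex, was at -0.13 ± 0.07 (adjusted p = 0.379). Neither probe of Uqcrfs1, the Rieske iron-sulfur protein, was above background on any array.

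Complex IV, cytochrome c oxidase, reduces oxygen to water and comes with isoforms that differ between tissues. Its 13 kept probes covered 10 of 16 genes, with 0 called, 9 below 0 and a median of -0.08. The common isoforms Cox4i1 (0.01), Cox5a (-0.05), Cox6a1 (-0.08 and -0.11) and Cox6b1 (0.02 and 0.04) had intervals within 0.5 units of zero. Cox7a2l, of the Cox7a family, was at 0.01 ± 0.09. The 3 probes at an unadjusted p under 0.05 were those of the small subunits Cox7b (-0.39 ± 0.14, adjusted p = 0.183), Cox6c (-0.24 ± 0.10, adjusted p = 0.217) and Cox7a2 (-0.22 ± 0.10, adjusted p = 0.245). Cox7b read 9.47, 9.62, 9.43, 9.67 and 9.67 in Il23r-/- samples, against 9.51, 10.01 and 10.33 at the lowest, the median and the highest in WT. Il23r-/- samples 1 and 3 lay below the WT range and the others in its lower part.

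Isoforms known from other tissues were mostly below background. Cox6a2 and Cox8b of heart and skeletal muscle, Cox6b2, Cox7b2 and Cox8c of testis, and Cox4i2, an isoform of lung, were above background on 0 arrays. Cox7a1, the muscle isoform, was above background on all 11 arrays, at 6.88 ± 0.14 in Il23r-/- and 7.03 ± 0.33 in WT cells (SD), a difference of -0.15 ± 0.14 (adjusted p = 0.623). Cox8a was not analysed here.

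Complex V, the ATP synthase, was represented by 25 kept probes for 16 genes, with 0 called, 16 below 0 and a median of -0.06. In the catalytic head, Atp5b, the β subunit that makes ATP, was at 0.17 ± 0.10 (adjusted p = 0.386) and Atp5c1, the rotating γ subunit, at 0.01 ± 0.10. Atp5a1, the α subunit, had 2 probes on opposite sides. The brighter read 11.78, 12.03, 12.08, 12.06 and 12.20 in Il23r-/- samples, against 12.05, 12.40 and 12.73 in WT, a difference of -0.36 ± 0.13 (adjusted p = 0.160), while the dimmer was at 0.05 ± 0.13.

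The genes for subunit c of the proton-driven rotor, Atp5g2 (0.06 ± 0.10) and Atp5g3 (0.00 ± 0.10), encode the same mature protein with different import sequences, and Atp5g1 was not analysed here. In the peripheral stalk, Atp5j had a dimmer probe at 8.83, 8.63, 8.21, 8.32 and 8.47 in Il23r-/- samples, against 8.73, 8.82 and 8.88 in WT. The first Il23r-/- sample was inside the narrow WT range and the others were below it, a difference of -0.33 ± 0.11 (adjusted p = 0.133). The brighter Atp5j probe was at -0.06 ± 0.07. Atp5pb, subunit b of that stalk, had 4 probes from -0.26 to 0.21, the lowest p standing at -0.20 ± 0.09 (adjusted p = 0.271). Atp5md, a small subunit that helps join ATP synthases, had the least precise value, -0.49 ± 0.25 (interval -1.03 to 0.05, adjusted p = 0.332), as its WT samples ran from 9.33 to 10.83.

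Of the 27 genes with more than 1 kept probe, 13 were lower in Il23r-/- cells on every probe, 3 were higher on every probe, and the remaining genes had probes of both signs or at zero. The dimmest probe had the lower difference in 19 of the 27 genes, with a median of -0.14 for the dimmest and -0.03 for the brightest probes. The 23 probes left out as dim were above background on 0 arrays, except an Atp5k probe above it on 2 WT arrays, and 10 genes had no kept probe. Just inside the filter was a Ndufb11 probe, above background on 2 Il23r-/- and 4 WT arrays, and the other 115 kept probes were above it on all 11.

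Subunits encoded by mitochondrial DNA were looked up after the files had been seen and had 8 probes for 8 genes, with 0 called and a median of -0.08. COX2, the copper-binding subunit of complex IV, was at -0.19 ± 0.15 (adjusted p = 0.529), ND1 of complex I at -0.13 ± 0.12 (adjusted p = 0.601), ND6 at -0.32 ± 0.19 (adjusted p = 0.394) and CYTB of complex III at 0.00 ± 0.07. Their median level per array was higher on dimmer arrays in both genotypes. In Il23r-/- samples 1 to 5 it was -0.31, -0.16, 0.06, 0.01 and 0.17, where the median raw intensity was 176.7, 164, 124.4, 130.7 and 117.5. In WT samples 1 to 6 it was -0.13, -0.22, 0.04, 0.00, 0.35 and 0.29, where the median raw intensity was 165.3, 156.7, 128.4, 131.7, 107.6 and 110.9. The dimmest array of each genotype had its highest value. The nuclear-encoded core of complex I ran the other way, from -0.10 and -0.09 in Il23r-/- sample 5 and WT sample 6 to 0.18 in Il23r-/- sample 1. Not every nuclear-encoded group did so. In WT samples 1 to 6 the Ndufb and Ndufc group stood at 0.04, -0.07, 0.17, 0.10, 0.27 and 0.07, highest on the dimmest WT array. In Il23r-/- samples that group stayed between -0.16 and -0.09. Complex II was likewise highest of the WT samples in sample 5 (0.29). In Il23r-/- samples complex II stood at -0.13 on the brightest and -0.15 on the dimmest array. The part of array brightness in the single genes was not tested beyond a fit with brightness as a covariate, in which Ndufaf4 was again the single member that passed.

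**Figure D5:**
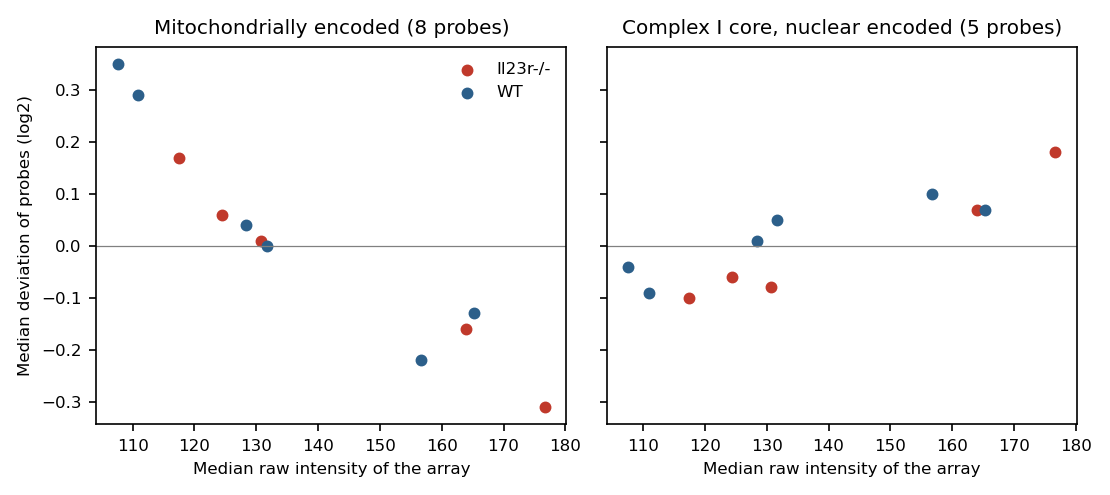
Median deviation of the mitochondrially encoded probes (left) and of the nuclear-encoded core of complex I (right) in log2 units against the median raw intensity of each of the 11 arrays, Il23r-/- in red and WT in blue. The mitochondrially encoded probes range from 0.35 on the dimmest array to -0.31 on the brightest, and the core subunits run the other way over a smaller range.

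Other genes that build or feed the respiratory chain were measured beside the subunits, and the genes named of each list are the pair with the smallest p, whatever their direction. Of 55 probes for assembly factors beyond the Ndufaf genes 0 passed (33 above 0, median 0.02), with Tmem186 at 0.32 and Coa7 at 0.32 on 1 probe and 0.10 on the other. Regulators of mitochondrial biogenesis had 1 of 24 probes called (median -0.02), where 1.78% of all probes were called. It was that of Polrmt, the RNA polymerase of mitochondria, which rose by 0.44 ± 0.10 (limma adjusted p = 0.0455). Polrmt read 9.79, 9.95, 9.81, 9.73 and 9.60 in Il23r-/- samples and 9.12 to 9.65 in WT samples. These ranges overlap through Il23r-/- sample 5 and WT sample 2. Whether the Polrmt call holds in the alternative fits was not tested. Gabpb1, a GABP subunit, was at 0.38 on 1 probe (adjusted p = 0.117) and between -0.21 and -0.15 on its other 3. The tricarboxylic acid cycle and pyruvate dehydrogenase list (28 probes, 18 below 0, median -0.03) had 0 called, and its 6 probes at an unadjusted p under 0.05 were 3 higher and 3 lower, with Idh3b at 0.27 and, on its other probe, -0.02, and Dlat at 0.23. Coenzyme Q synthesis (18 probes, median 0.03) had 0 called, with Coq3 at -0.47 and Coq10b at 0.60 on 1 probe and between -0.12 and 0.10 on its other 4. Carriers and channels (9 probes, median -0.08) had 0 called and 8 below 0, with Slc25a3, the phosphate carrier, at -0.21 and -0.22, and Slc25a4, an ADP/ATP carrier, at -0.45. That Slc25a4 probe was dim, above background on 3 of 5 Il23r-/- and 5 of 6 WT arrays (limma adjusted p = 0.317). Mitochondrial import (26 probes, median -0.03) had 0 called, and its 7 probes at an unadjusted p under 0.05 were 3 higher and 4 lower, with Tomm6 at -0.36 (adjusted p = 0.0690) and -0.21, and Tomm40 at -0.37. The mitochondrial ribosome (110 probes, 70 below 0, median -0.04) had 0 called, with Mrpl4 at -0.29 and Mrpl20 at -0.30. In a list of respiratory chain proteins that the symbols did not take, Atpif1, the inhibitor of the ATP synthase, was at 0.13 and -0.08, and Dmac2 was at 0.00, with 0 of 4 probes called.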

How the data were processed

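Per the labels, total RNA of 11 sorted samples was amplified, given a biotin label and put on a mouse Illumina array of a single colour. The deposited intensity of each probe is on a linear scale, and the submitters' processing notes name GenomeStudio 1.6.0 without saying for which step. The deposited fraction beside it, headed as a detection p, rose with the intensity (Spearman correlation at least 0.984 per array) and was read as 1 minus that p. The deposited log2 values matched log2 intensity minus each array's 75th percentile, within 0.000339, which joined rows to probe names. Genes came from the platform annotation: 34885 probes had 1 symbol, 18 had several and stayed unnamed, and 10378 were not listed.

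Intensities were corrected and quantile normalized with neqc (limma 3.58.1, R 4.3.3, offset 16, which shrinks differences of dim probes), and genotypes were compared with lmFit and eBayes, two-sided, on the probes above background (p under 0.05) on at least 5 arrays, with Benjamini-Hochberg adjustment over all of them. The code was tested on simulated data. The members and lists, among them the grouping of complex I and the mitochondrially encoded genes added last, were chosen with earlier results of these data known. Named genes were the called ones, the 4 of smallest p per complex, catalytic subunits, isoform families, genes whose probes differed by over 0.5, and 2 per list. No slide is named in the labels, so its part was not tested. The number of arrays limits the precision.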

Additional observations from a re-analysis of the deposited data

Results flagged for a closer look

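Of 106 sets of samples (a genotype on 1 named probe or 1 complex), 2 held a sample far from the others of its genotype by Dixon's test, which flags about 1 in 20 by chance. On the Cox7a2 probe, Il23r-/- sample 3 was lowest at 9.20, with the others from 9.46 to 9.53. On the Uqcrc1 probe, WT sample 4 was highest at 11.60, with the others from 11.42 to 11.48.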

How the results depend on the processing

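Over the 24 alternatives, the 47 named probes kept their side of the threshold in 1095 of 1112 values and their sign in 1044. Subunits alone and an adjusted p under 0.1 reuse the main fit, so no sign could change there. Only 1 of these probes, of Ndufaf4, was called in the main fit. It lost its call in 8 of 11 leave-one-out fits and in 3 of 11 other settings. The 1 called member became 0, in complex I as in all, with the replicate block, with equal medians, with the brightest probe per gene, with subunits alone and with replicates 1 to 5. The brightest probe per gene and subunits alone leave out the called Ndufaf4 probe, so these settings did not test its call again. Whether samples with the same number shared a recipient is not stated, and their deviations correlated at 0.24, 0.17, -0.01, 0.08 and 0.26 for numbers 1 to 5, over 0.1 in 3 of 5 pairs, so pairing is unresolved. By this correlation the closest WT sample to Il23r-/- samples 1 to 5 was number 2, 2, 1, 6 and 6, so only sample 2 was closest to its own number. The replicate block called 264 probes in all, against 320. Replicates 1 to 5 are the same samples as without WT sample 6. The count became 2, with 1 in complex II (Sdhb), without background correction, with array weights and at an adjusted p under 0.1. Leaving out 1 sample gave 0 to 4 called members, 0 to 3 in complex I and 0 to 1 in complex II, the highest counts without WT sample 2. With equal medians the median difference became -0.16 over all members, -0.14 in complex I, -0.15 in III, -0.19 in IV and -0.18 in V, and with the authors' log2 values -0.08 in III and -0.13 in V. The cause of these shifts was not tested. Leaving out 1 sample kept the median of all members between -0.09 and -0.05. At an adjusted p under 0.1, 649 probes were called in all, with array weights 465 and without the detection filter 210 of 45281. Without a sample, 154 (WT 5) to 509 (WT 2) of all probes were called.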
